A study of Mus musculus with 9 samples.

Results

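The genes described here are 44 mouse genes that serve ribosome biogenesis in the nucleolus. They were chosen by name, as the rows of the deposited count table whose gene symbol equals a member of the list, which was framed as Myc-driven genes to be set against a higher Myc transcript level in Eya3 knockdown cells. All 44 were found among the 52208 genes of the table, and all 44 passed the filter on low counts that left 16766 genes for testing. Messenger RNA was sequenced in 9 libraries of 66cl4, a mouse mammary carcinoma line labelled triple negative, with 3 biological replicates in each of 3 groups. Add-back cells carried a short hairpin RNA against Eya3, an Eyes absent family gene whose product is both a phosphatase and a coactivator of transcription, together with IKK2-SE, an always-active version of the kinase upstream of NF-kB. Knockdown cells carried the Eya3 hairpin with an empty vector. Scramble cells carried a non-targeting hairpin with the empty vector. In all 3 groups the cells were held in puromycin once the hairpin was in, and either vector was selected for through its mCherry marker.

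The design limits what the groups can show. There was 1 hairpin against Eya3, named KD2 in the sample titles and KD3 in the table's columns, and 1 scramble hairpin, so loss of Eya3 and any other effect of that hairpin cannot be told apart. No scramble cells with IKK2-SE were analysed here. Whether replicates came from separate transductions is not stated in the sources used here, so the p-values measure only the spread between these libraries. In bulk RNA, a change in the share of cells that express a gene and a change in RNA per cell cannot be told apart.

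Ribosomes are built in the nucleolus. RNA polymerase I copies the ribosomal DNA into a long precursor, small nucleolar ribonucleoproteins (snoRNPs) of the box C/D kind methylate it and those of the box H/ACA kind convert uridines to pseudouridine, and large assemblies of processing factors then cut and fold it into the precursors of the small and the large ribosomal subunit. Many of these genes are textbook targets of Myc, a transcription factor that binds E-box sequences with its partner Max and drives cell growth, and tumour cells with high Myc often have large nucleoli.

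Library totals ran from 63601403 to 81534534 counts, and the 44 genes together took 1.063% to 1.189% of them. Eya3 had 28.99, 26.05 and 24.66 CPM (counts per 1000000 of the library total, with TMM factors between libraries) in add-back cells, 25.34, 25.29 and 24.28 CPM in knockdown cells and 62.96, 64.13 and 60.91 CPM in scramble cells. It was thus low in all 6 hairpin libraries, as their labels say. The mitochondrial share of counts ran from 1.036% to 1.429% in add-back, 0.9395% to 1.417% in knockdown and 1.164% to 1.253% in scramble libraries, so the ranges overlapped.

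The label of the line was checked against defining markers. The epithelial adhesion genes Epcam and Cdh1 had at most 8 counts in any library. Krt8, an epithelial keratin, averaged 1070 ± 39.6 CPM in add-back, 1330 ± 68.3 CPM in knockdown and 628 ± 29.6 CPM in scramble cells, and the mesenchymal filament gene Vim 2690 ± 118, 3810 ± 211 and 2770 ± 233 CPM in the same groups (SD, n = 3 each). Other keratins were low and moved in different directions: edgeR called Krt7 higher and Krt14 lower in both comparisons with scramble, and Krt5 higher in knockdown over scramble. The 6 tested epithelial carcinoma markers, Vim included, summed to 3593 to 3897 CPM in add-back, 4897 to 5437 CPM in knockdown and 3100 to 3592 CPM in scramble libraries. Of the receptors that a triple-negative line should lack, Pgr had 0 counts in every library, while Esr1 averaged 20.1, 16.4 and 11.8 CPM and Erbb2 63.8, 63.5 and 55.4 CPM in add-back, knockdown and scramble cells. Both Esr1 and Erbb2 were called higher in both comparisons with scramble.

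Markers of other cell types were low, but several moved with the groups. The leukocyte genes Ptprc, Cd3e and Adgre1 had at most 15 counts in any library. The 5 markers of leukocytes, endothelium and fibroblasts that passed the filter summed to 15.57 to 17.55 CPM in add-back, 13.32 to 15.55 CPM in knockdown and 23.75 to 25.14 CPM in scramble libraries. Among them, Cd68, known from macrophage lysosomes, averaged 3.43, 4.2 and 14.5 CPM, the endothelial cadherin Cdh5 0.634, 0.226 and 4.36 CPM and the collagen Col1a1 1.52, 2.59 and 3.96 CPM in add-back, knockdown and scramble cells, and edgeR called all 3 lower in both comparisons with scramble. Pdgfrb, a fibroblast and pericyte receptor, averaged 10.7, 7.08 and 1.24 CPM and was called higher in both, and Pecam1 was called in neither. The part of these markers in the results on ribosome biogenesis genes was not tested.

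Myc, on the plus strand of chromosome 15 at 61985391 to 61990374 (GRCm38/mm10), was highest in the knockdown. It had 306.2, 332.1 and 300.1 CPM in add-back cells, 348.0, 368.0 and 357.3 CPM in knockdown cells and 245.8, 251.4 and 250.5 CPM in scramble cells. The 3 groups did not overlap, with add-back between the other two. Its log2 fold change was 0.52 ± 0.04 (SE) for knockdown over scramble (adjusted p = 1.41e-08, edgeR quasi-likelihood test with Benjamini-Hochberg adjustment over all tested genes, as for every adjusted p below unless another tool is named), 0.33 ± 0.04 for add-back over scramble (edgeR adjusted p = 3.76e-06) and -0.19 ± 0.04 for add-back over knockdown (edgeR adjusted p = 0.00494). Its partner Max averaged 87.4 ± 4.57, 87.3 ± 3.78 and 82.5 ± 3.04 CPM in add-back, knockdown and scramble cells (SD, n = 3 each). The related Mycn averaged 0.143, 0.185 and 0.984 CPM in the same order. Mxd4, a Max partner known as a repressor of Myc targets, rose by 1.37 ± 0.06 on the log2 scale in add-back and by 1.40 ± 0.06 in knockdown cells over scramble (edgeR adjusted p = 1.98e-11 and 1.2e-11). Mxd3 fell by 0.39 ± 0.08 in add-back and by 0.35 ± 0.08 in knockdown cells over scramble (edgeR adjusted p = 0.000398 and 0.001). Mxd1 fell by 0.37 ± 0.11 in knockdown over scramble (edgeR adjusted p = 0.00831; 0.0699 without scramble replicate 2, the highest of its alternatives, and 0.0028 at the lowest). Mxi1 fell by 0.32 ± 0.08 in add-back over knockdown (edgeR adjusted p = 0.0236), a call lost without add-back replicate 1 (0.0527) or 3 (0.0723) or knockdown replicate 1 (0.0867) or 2 (0.0681), in a range from 6.4e-08 to 0.0867. In knockdown over scramble, Mxi1 had 0.20 ± 0.08 (edgeR adjusted p = 0.05, just short of the threshold, and 0.000465 to 0.184 over the alternatives, 11 of which passed). Mxd1, Mxd3 and Mxi1 were named after their values were seen.

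Because Myc and Max bind E-boxes, the canonical one, CACGTG, was searched in a window from 250 bases before to 50 bases after each gene start. The letters read the same on both strands, so a single search covers both. RefSeq promoters (GRCm38.p6) matched 40 of the 44 genes by symbol. Fbl, Npm1, Rrp12 and Bop1 had no entry in the table used. CACGTG stood in the window of 10 of the 40 genes (25.0%), against 11.2% of tested genes and 8.09% of all genes with a window. Stretches around it are printed for Rrn3, the only gene of the list with a pair of them, and for Imp4 and Nop2, members of the small-subunit and large-subunit groups, with the motif in capitals and the rest in lower case, 5′ to 3′.
Rrn3, chr16:13780449-13780696, plus strand: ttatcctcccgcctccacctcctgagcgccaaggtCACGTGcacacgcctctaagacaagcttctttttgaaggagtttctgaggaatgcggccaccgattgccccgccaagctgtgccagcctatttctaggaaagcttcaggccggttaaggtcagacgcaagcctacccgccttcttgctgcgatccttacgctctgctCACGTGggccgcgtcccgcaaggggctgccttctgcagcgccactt
Imp4, chr1:34439668-34439753, plus strand: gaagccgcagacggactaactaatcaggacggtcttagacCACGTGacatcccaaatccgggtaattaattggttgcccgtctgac
Nop2, chr6:125131783-125131868, plus strand: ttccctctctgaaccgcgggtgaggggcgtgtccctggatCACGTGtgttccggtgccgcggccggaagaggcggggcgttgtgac
The Rrn3 motifs begin 215 and 48 bases before the start site, the Imp4 motif 121 bases before it and the Nop2 motif 60 bases before it. The other genes with the motif were Utp4, Utp20, Wdr43, Ltv1, Tsr1, Pes1 and Nle1. Set against the knockdown calls given below, the motif was in 2 of 9 genes that were higher than in scramble cells, 4 of 18 that were lower and 4 of 13 that did not pass the test. A match is a description of these letters and was not tested as a binding site.

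Although Myc was higher, more of the 44 genes fell than rose in knockdown cells. For knockdown over scramble, 10 rose (22.7%), 21 fell (47.7%) and 13 did not pass the test, where 27.7% of all tested genes rose, 29.9% fell and 57.5% changed in either direction. The median log2 fold change of the 44 was -0.10, against -0.00 for all tested genes, and single genes ran from -0.63 to 0.53. All were changes of less than 2-fold, a size that 2728 tested genes reached. The 44 genes are well expressed, with mean levels between 37.0 and 2620 CPM; among the 5535 tested genes in that range, 39.9% rose, 30.6% fell and 70.5% changed in either direction. In single libraries, 9 genes were higher in every knockdown than in every scramble library and 23 were lower, where 30.6% and 33.0% of all tested genes were, 63.6% in all.

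Add-back cells, which share the scramble libraries with that comparison, gave 9 rises (20.5%), 27 falls (61.4%) and 8 genes that did not pass, where 27% of all tested genes rose, 28.7% fell and 55.8% changed in either direction. The median was -0.13, and the range -0.65 to 0.46. In the same range of levels, 36.5% of genes rose, 32.0% fell and 68.5% changed in either direction. Libraries of the 2 groups did not overlap for 6 genes that were higher and 27 that were lower, against 29.6% and 31.5% of all tested genes, 61.1% in all.

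**Figure D1:**
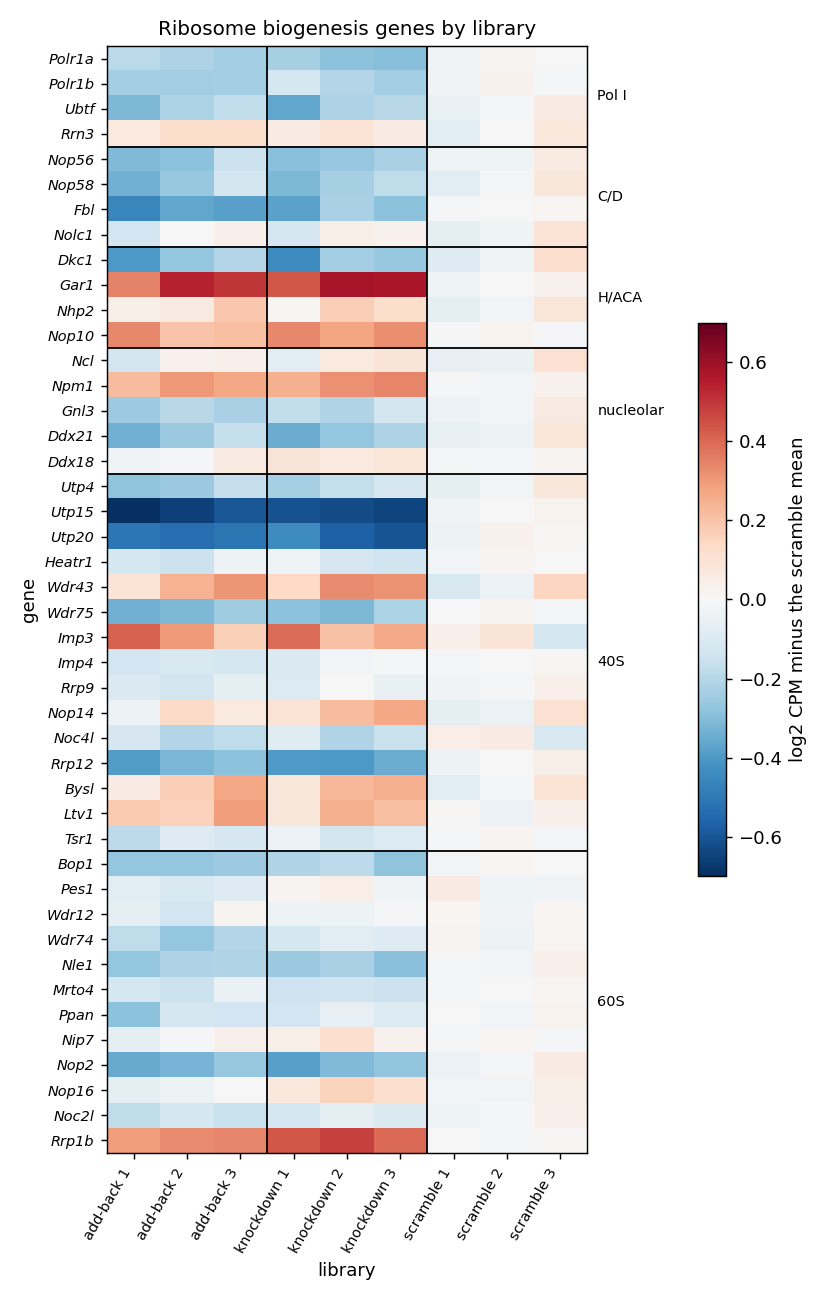
Level of each of the 44 genes (rows, grouped by role) in each of the 9 libraries (columns, with add-back left, knockdown in the middle and scramble right), as log2 CPM minus the mean of the scramble libraries, red for higher and blue for lower. Utp15 and Utp20 are the darkest blue rows and Gar1 the darkest red one in the 6 hairpin libraries, and most other rows are pale.

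Few of these genes differed between add-back and knockdown cells, which both carry the Eya3 hairpin. For add-back over knockdown, edgeR called none of the 44 higher and 1 lower, Nop16 (2.27%), where 5.61% of all tested genes rose, 4.82% fell and 10.4% changed in either direction. At an unadjusted p under 0.05, 0 were higher and 6 lower, while DESeq2 called 0 higher and 4 lower and limma voom 0 higher and 1 lower. Small differences leaned one way, with 30 of the 44 log2 fold changes below 0 (68.2%, against 49.4% of all tested genes), a median of -0.03 and a range from -0.15 to 0.06. Libraries of the 2 groups did not overlap for 7 genes, all lower in add-back, where 11.9% of all tested genes were lower in that way, 12.8% higher and 24.7% either. Among tested genes in the same range of levels, 5.17% rose, 9.29% fell and 14.5% changed in either direction.

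**Figure D2:**
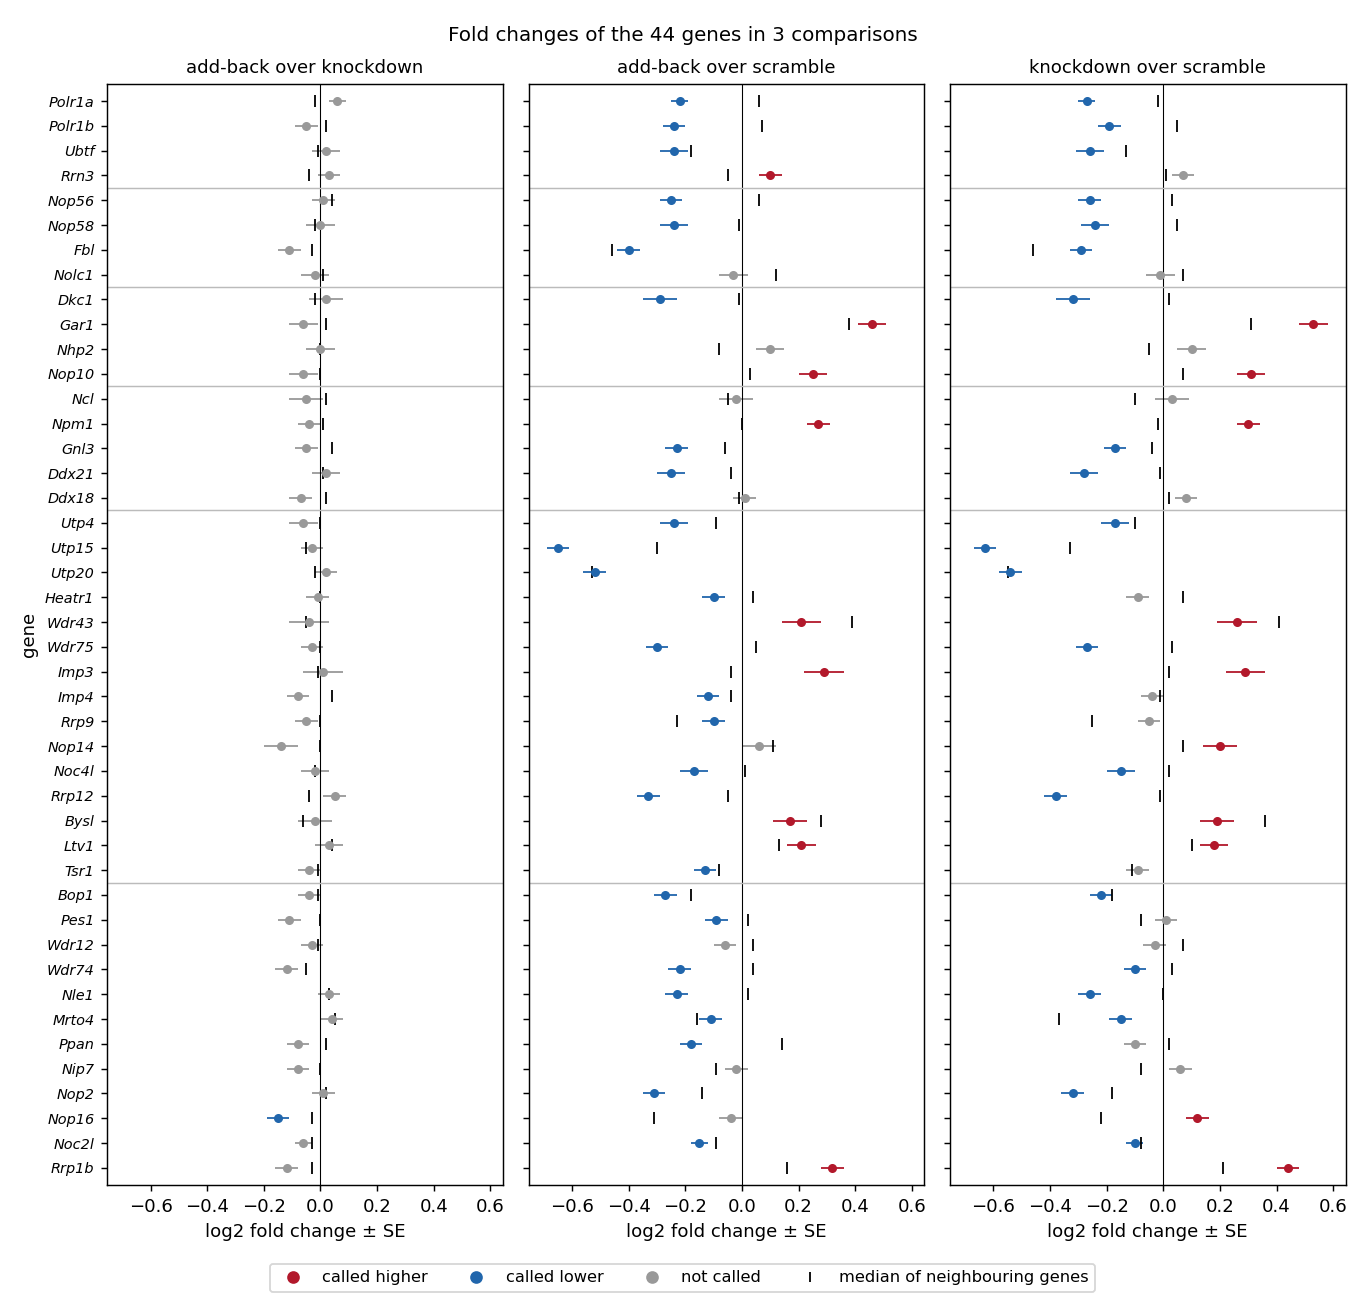
Log2 fold change of each of the 44 genes (points, with bars of 1 SE) for add-back over knockdown, add-back over scramble and knockdown over scramble, coloured by the edgeR call, with a black tick at the median of the other genes among the 41 tested genes centred on it in the genome. The left panel keeps close to 0, from -0.15 to 0.06, while the other panels spread from -0.65 to 0.53.

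Of the 4 genes of RNA polymerase I transcription, 3 fell in both hairpin groups against scramble. The share of all tested genes that fell was 28.7% in add-back and 29.9% in knockdown over scramble. Polr1a (chromosome 6, 71909053 to 71984935, plus strand), the largest subunit of the enzyme, had 157.7, 154.8 and 152.2 CPM in add-back cells, 152.9, 147.3 and 146.1 CPM in knockdown cells and 176.9, 182.4 and 180.1 CPM in scramble cells. Every hairpin library was below every scramble library, and add-back and knockdown overlapped. It fell by 0.22 ± 0.03 on the log2 scale in add-back and by 0.27 ± 0.03 in knockdown cells (edgeR adjusted p = 5.99e-05 and 4.19e-06), while add-back over knockdown was 0.06 ± 0.03 (edgeR adjusted p = 0.371). Polr1b (chromosome 2, 129100995 to 129126594, plus strand), another core subunit, had 59.59, 59.22 and 59.47 CPM in add-back, 64.39, 60.97 and 59.55 CPM in knockdown and 69.05, 71.64 and 69.83 CPM in scramble cells, again with both hairpin groups under every scramble library. It fell by 0.24 ± 0.04 in add-back and by 0.19 ± 0.04 in knockdown cells (edgeR adjusted p = 8.7e-05 and 0.000778). Ubtf (chromosome 11, 102304560 to 102319742, minus strand), which binds the ribosomal DNA promoter and keeps its chromatin open, had 305.6, 326.1 and 337.1 CPM in add-back, 295.0, 327.2 and 331.8 CPM in knockdown and 367.3, 377.0 and 396.0 CPM in scramble cells. It too was lower in all 6 hairpin libraries, with log2 fold changes of -0.24 ± 0.05 and -0.26 ± 0.05 for add-back and knockdown over scramble (edgeR adjusted p = 0.000648 and 0.000273).

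Rrn3 (chromosome 16, 13780708 to 13814839, plus strand), the factor that brings the polymerase to its promoter and the gene with a pair of E-boxes printed above, went the other way. It had 114.4, 118.7 and 118.9 CPM in add-back, 113.8, 116.8 and 113.4 CPM in knockdown and 103.8, 109.3 and 114.7 CPM in scramble cells, and scramble replicate 3 lay among the hairpin libraries. The log2 fold change of 0.10 ± 0.04 for add-back over scramble passed narrowly (edgeR adjusted p = 0.0404). That call was lost without add-back replicate 2 (0.0863) or 3 (0.0828), without scramble replicate 1 (0.182) or 2 (0.0798), with scaling by library totals (0.0969) and with no filter (0.0882), and the adjusted p ranged from 0.00959 to 0.182 over the alternatives. For knockdown over scramble it was 0.07 ± 0.04 (edgeR adjusted p = 0.159), which passed without scramble replicate 3 (0.0439) and reached 0.689 at the highest.

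Of the 4 box C/D genes, 3 that encode core proteins of the particle fell in both hairpin groups against scramble. Among all tested genes, 28.7% fell in add-back and 29.9% in knockdown over scramble. Snu13, outside the list and counted below with other snoRNP assembly genes, was called higher in knockdown over scramble and was not called in add-back over scramble. Fbl (chromosome 7, 28169710 to 28179269, plus strand), the methyltransferase fibrillarin, had 149.7, 159.6 and 157.7 CPM in add-back, 158.5, 175.6 and 168.4 CPM in knockdown and 203.4, 205.4 and 207.3 CPM in scramble cells. Both hairpin groups were below all scramble libraries, and add-back overlapped knockdown. Its log2 fold changes over scramble were -0.40 ± 0.04 in add-back and -0.29 ± 0.04 in knockdown cells (edgeR adjusted p = 4.17e-07 and 1.21e-05), with -0.11 ± 0.04 for add-back over knockdown (edgeR adjusted p = 0.133). That last value passed without knockdown replicate 1 (0.0455) and ranged from 0.0201 to 0.473 over the alternatives. The genes around Fbl were also lower, with a median of -0.46 over the other genes of the 41 tested genes centred on it in both comparisons with scramble. Nop56 (chromosome 2, 130274430 to 130279313, plus strand), a scaffold protein of the particle, had 309.7, 314.4 and 345.9 CPM in add-back, 312.9, 319.4 and 328.1 CPM in knockdown and 375.2, 375.9 and 399.9 CPM in scramble cells. It was below scramble in all 6 hairpin libraries, with log2 fold changes of -0.25 ± 0.04 and -0.26 ± 0.04 (edgeR adjusted p = 0.000167 and 9.06e-05), while its neighbours had medians of 0.06 and 0.03. Nop58, the other scaffold, fell by 0.24 ± 0.05 in each hairpin group (edgeR adjusted p = 0.00114 in add-back and 0.00102 in knockdown cells). Nolc1, a chaperone of snoRNPs, averaged 632 ± 38.4, 639 ± 39.3 and 646 ± 37.5 CPM in add-back, knockdown and scramble cells (SD, n = 3 each) and did not pass the test in any comparison.

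The box H/ACA particle split. Gar1 (chromosome 3, 129824912 to 129831396, minus strand), one of its small core proteins, showed the largest rise of the 44 genes in both comparisons with scramble. It had 72.56, 83.01 and 80.77 CPM in add-back, 77.08, 85.24 and 84.86 CPM in knockdown and 56.03, 56.97 and 58.41 CPM in scramble cells. Every hairpin library was above every scramble library, with replicate 1 the lowest in both hairpin groups. The log2 fold change was 0.46 ± 0.05 in add-back and 0.53 ± 0.05 in knockdown cells (edgeR adjusted p = 1.35e-06 and 2.55e-07), in a stretch of chromosome 3 where the neighbouring genes had medians of 0.38 and 0.31. Nop10 (chromosome 2, 112261926 to 112263269, plus strand), another small core protein, had 53.40, 48.63 and 48.94 CPM in add-back, 53.46, 51.30 and 53.15 CPM in knockdown and 41.89, 43.14 and 42.02 CPM in scramble cells. It was above scramble in all 6 hairpin libraries, with log2 fold changes of 0.25 ± 0.05 and 0.31 ± 0.05 (edgeR adjusted p = 0.000202 and 1.82e-05). Dkc1, the pseudouridine synthase dyskerin and catalytic subunit of the same particle, had 130.3, 142.6 and 149.2 CPM in add-back, 126.7, 145.6 and 143.0 CPM in knockdown and 161.3, 169.1 and 186.3 CPM in scramble cells. It was lower in both hairpin groups than in any scramble library, with log2 fold changes of -0.29 ± 0.06 and -0.32 ± 0.06 (edgeR adjusted p = 0.00113 and 0.000576). Nhp2, the remaining core protein, averaged 117 ± 6.50, 117 ± 6.83 and 109 ± 5.96 CPM in add-back, knockdown and scramble cells (SD, n = 3 each), with log2 fold changes over scramble of 0.10 in both (edgeR adjusted p = 0.122 and 0.112). It passed without scramble replicate 3 in add-back (0.035) and knockdown (0.0342), and without knockdown replicate 1 in knockdown (0.0229). With the replicate number as a block it passed in both (0.0176 in add-back and 0.015 in knockdown). The highest values were 0.393 in add-back and 0.423 in knockdown.

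Of the 5 nucleolar proteins and helicases, 1 rose and 2 fell in both comparisons with scramble. Npm1 (chromosome 11, 33152287 to 33163206, minus strand), nucleophosmin, a histone and ribosome chaperone, had 2665, 2824 and 2754 CPM in add-back, 2710, 2854 and 2891 CPM in knockdown and 2268, 2253 and 2333 CPM in scramble cells. All 6 hairpin libraries were above all scramble libraries, with log2 fold changes of 0.27 ± 0.04 in add-back and 0.30 ± 0.04 in knockdown cells (edgeR adjusted p = 1.2e-05 and 2.66e-06), beside neighbours with medians of 0.00 and -0.02. Ncl (chromosome 1, 86344719 to 86359400, minus strand), nucleolin, which binds nascent ribosomal RNA, had 2099, 2338 and 2347 CPM in add-back, 2175, 2408 and 2441 CPM in knockdown and 2201, 2221 and 2469 CPM in scramble cells. The 3 groups overlapped, with values of -0.02 ± 0.06 and 0.03 ± 0.06 over scramble (edgeR adjusted p = 0.76 and 0.703). Ddx21, an RNA helicase that acts in polymerase I transcription and processing, had 406.5, 429.0 and 457.4 CPM in add-back, 403.4, 425.7 and 442.5 CPM in knockdown and 496.1, 501.0 and 545.6 CPM in scramble cells. Its fall was clear of the spread between libraries, at -0.25 ± 0.05 in add-back and -0.28 ± 0.05 in knockdown cells over scramble (edgeR adjusted p = 0.000363 and 0.000148). Gnl3, the GTPase nucleostemin, also fell, with log2 fold changes of -0.23 ± 0.04 and -0.17 ± 0.04 (edgeR adjusted p = 0.00011 and 0.0012).

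Ddx18, a helicase of large-subunit assembly, had 118.9, 119.6 and 126.4 CPM in add-back, 128.7, 126.7 and 128.3 CPM in knockdown and 120.5, 119.9 and 122.5 CPM in scramble cells. The knockdown libraries were above all others, but by little, at 0.08 ± 0.04 for knockdown over scramble (edgeR adjusted p = 0.0653) and -0.07 ± 0.04 for add-back over knockdown (edgeR adjusted p = 0.256). Knockdown over scramble passed without add-back replicate 3 (0.0404), and ranged from 0.0242 to 0.482 over the alternatives.

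Among the 15 genes of the small-subunit processome and later small-subunit precursors, 4 rose and 10 fell in add-back over scramble, and 5 rose and 6 fell in knockdown over scramble. In either direction, 93.3% and 73.3% of the 15 were called, against 55.8% and 57.5% of all tested genes. Among tested genes in the range of levels of the 44, 68.5% and 70.5% were. Utp15 (chromosome 13, 98246845 to 98263041, minus strand), part of the complex that binds the precursor first, fell most of the 44 genes. It had 70.10, 72.70 and 75.55 CPM in add-back, 75.16, 74.15 and 73.24 CPM in knockdown and 112.4, 114.7 and 116.5 CPM in scramble cells. The hairpin libraries lay far below the scramble libraries and overlapped each other, with log2 fold changes of -0.65 ± 0.04 in add-back (a change of -36.4%) and -0.63 ± 0.04 in knockdown cells (edgeR adjusted p = 3.99e-10 and 6.17e-10). Its neighbours were lower too, with medians of -0.30 and -0.33. Utp20 (chromosome 10, 88746607 to 88826804, minus strand), a large scaffold protein, had 122.7, 120.6 and 122.2 CPM in add-back, 128.4, 117.1 and 114.6 CPM in knockdown and 169.9, 177.9 and 174.9 CPM in scramble cells. It fell by 0.52 ± 0.04 in add-back and by 0.54 ± 0.04 in knockdown cells (edgeR adjusted p = 2.58e-08 and 1.45e-08), as much as its neighbours, whose medians were -0.53 and -0.55.

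Other factors of small-subunit assembly fell as well. Wdr75, of the same early complex as Utp15, had 80.37, 81.62 and 85.30 CPM in add-back, 83.21, 81.66 and 87.01 CPM in knockdown and 101.3, 102.7 and 100.4 CPM in scramble cells, with neighbour medians of 0.05 and 0.03. It was lower in every hairpin library, with log2 fold changes of -0.30 ± 0.04 in add-back and -0.27 ± 0.04 in knockdown cells (edgeR adjusted p = 5.56e-06 and 1.38e-05). Rrp12, which in yeast accompanies precursors out of the nucleus, had 53.08, 55.83 and 57.10 CPM in add-back, 52.88, 52.70 and 54.79 CPM in knockdown and 67.94, 69.47 and 71.72 CPM in scramble cells. Its groups did not overlap with scramble either, at -0.33 ± 0.04 and -0.38 ± 0.04 (edgeR adjusted p = 4.19e-06 and 7.75e-07), with neighbour medians of -0.05 and -0.01. Utp4, also of the early complex, fell by 0.24 ± 0.05 in add-back and by 0.17 ± 0.05 in knockdown cells (edgeR adjusted p = 0.000374 and 0.00451), where its neighbours had medians of -0.09 and -0.10.

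Imp3, a small protein that helps pair the precursor with its guide snoRNA, rose. It had 68.36, 63.09 and 57.73 CPM in add-back, 67.38, 59.33 and 61.65 CPM in knockdown and 52.58, 54.71 and 47.16 CPM in scramble cells. The hairpin libraries spread widely but stayed above scramble, with log2 fold changes of 0.29 ± 0.07 in both (edgeR adjusted p = 0.00156 in add-back and 0.00175 in knockdown cells). Ltv1, an assembly factor of late precursors, rose by 0.21 ± 0.05 in add-back and by 0.18 ± 0.05 in knockdown cells (edgeR adjusted p = 0.00141 and 0.00465). Wdr43, of the early complex, rose by 0.21 ± 0.07 and 0.26 ± 0.07 in the same groups (edgeR adjusted p = 0.0225 and 0.00744), but its libraries overlapped scramble and its neighbours rose more, with medians of 0.39 and 0.41. In add-back the Wdr43 call was lost without add-back replicate 2 (0.0601) or 3 (0.0764) and without scramble replicate 1 (0.0799) or 2 (0.0649), within a range from 5.24e-06 to 0.0799. Bysl, another late factor, rose by 0.17 ± 0.06 and 0.19 ± 0.06 (edgeR adjusted p = 0.027 and 0.0138), less than its neighbours at 0.28 and 0.36. Its add-back call was lost without add-back replicate 2 (0.0544) or 3 (0.114), without scramble replicate 1 (0.11) or 2 (0.0688) and with library totals (0.0524), and its knockdown call without knockdown replicate 2 (0.0521) or 3 (0.0555), without scramble replicate 1 (0.0675) and with library totals (0.0621); the lowest values were 0.000181 and 4.65e-05.

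Nop14, a processome protein, had 152.3, 171.2 and 163.6 CPM in add-back, 166.5, 182.2 and 188.4 CPM in knockdown and 149.1, 151.4 and 168.2 CPM in scramble cells. It rose in knockdown cells over scramble, by 0.20 ± 0.06 on the log2 scale (edgeR adjusted p = 0.00677), although knockdown replicate 1 lay below scramble replicate 3. Add-back lay between, at 0.06 ± 0.06 over scramble (edgeR adjusted p = 0.431) and -0.14 ± 0.06 over knockdown (edgeR adjusted p = 0.141). The value over knockdown passed with no filter (0.0199) and without knockdown replicate 1 (0.0468), and ranged from 0.00743 to 0.395.

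The remaining 5 genes of the small-subunit group moved little, with log2 fold changes between -0.17 and -0.04 over scramble. Noc4l, a partner of Nop14, fell by 0.17 ± 0.05 in add-back and by 0.15 ± 0.05 in knockdown cells (edgeR adjusted p = 0.00862 and 0.0157), calls that were lost without scramble replicate 2 in add-back (0.0654), and without knockdown replicate 2 (0.0942), scramble replicate 1 (0.0751) or scramble replicate 2 (0.0973) in knockdown. The adjusted p of Noc4l ranged from 0.00111 to 0.0654 in add-back and from 0.0022 to 0.0973 in knockdown. Tsr1, a GTPase-like factor of late precursors, fell by 0.13 ± 0.04 in add-back (edgeR adjusted p = 0.00761; 0.0581 without add-back replicate 1, the highest of its alternatives, and 0.00242 at the lowest) and was at -0.09 ± 0.04 in knockdown (edgeR adjusted p = 0.0523; 0.033 without knockdown replicate 1, in a range from 0.00443 to 0.217). Its exons overlap those of Srr on the opposite strand by 1240 bases. Imp4, the partner of Imp3 whose E-box is printed above, had 73.30, 74.74 and 74.07 CPM in add-back, 75.00, 79.38 and 80.09 CPM in knockdown and 79.96, 80.78 and 80.99 CPM in scramble cells. Its add-back libraries were below all others, at -0.12 ± 0.04 over scramble (edgeR adjusted p = 0.0114). Its knockdown value was -0.04 ± 0.04 (edgeR adjusted p = 0.342), which passed only with library totals (0.0482).

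Heatr1, a large protein of the early complex, and Rrp9, a protein of the snoRNP that guides the first cuts, passed narrowly in add-back over scramble, each at -0.10 ± 0.04 (edgeR adjusted p = 0.0414 and 0.0445). For Heatr1 the call was lost with no filter, with a fit of only the 2 groups and without each single library but add-back replicate 3 and knockdown replicate 1, with adjusted p up to 0.206, reached without add-back replicate 2, and down to 0.0152. For Rrp9 it was lost with no filter, with a fit of only the 2 groups and without each single library but add-back replicate 3, with adjusted p from 0.0186 up to 0.17, reached without add-back replicate 2 and without scramble replicate 3. In knockdown over scramble they were at -0.09 ± 0.04 and -0.05 ± 0.04 (edgeR adjusted p = 0.0555 and 0.298). Heatr1 passed there without add-back replicate 3 (0.0497) and without knockdown replicate 1 (0.0223). It also passed with library totals (0.0075), a filter on CPM (0.0476) and the replicate number as a block (0.024), and reached 0.232 at the highest. Rrp9 passed there only with library totals (0.0484).

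Large-subunit genes fell more often than they rose. Of 12, 1 rose and 8 fell in add-back over scramble, and 2 rose and 6 fell in knockdown over scramble. Nop2 (chromosome 6, 125131909 to 125144753, plus strand), a methyltransferase of the large-subunit RNA and a proliferation antigen, fell most of them, and its E-box is printed above. It had 158.2, 161.5 and 168.7 CPM in add-back, 155.5, 163.3 and 167.3 CPM in knockdown and 196.5, 200.5 and 210.4 CPM in scramble cells. All hairpin libraries were below all scramble libraries, with log2 fold changes of -0.31 ± 0.04 and -0.32 ± 0.04 (edgeR adjusted p = 5.63e-06 and 4.06e-06). Bop1, Pes1 and Wdr12 form the PeBoW complex, which is needed to process the large-subunit RNA. Bop1 fell by 0.27 ± 0.04 in add-back and by 0.22 ± 0.04 in knockdown cells (edgeR adjusted p = 9.6e-06 and 5.34e-05), while Wdr12 was at -0.06 ± 0.04 and -0.03 ± 0.04 (edgeR adjusted p = 0.245 and 0.602). Pes1 had 179.3, 175.8 and 178.3 CPM in add-back, 191.8, 196.0 and 186.5 CPM in knockdown and 197.5, 185.2 and 185.9 CPM in scramble cells. Its add-back libraries were the lowest, narrowly so over scramble at -0.09 ± 0.04 (edgeR adjusted p = 0.0443), a call lost without any single library of the 9 (0.0511 to 0.249, the highest without scramble replicate 1) and with a lowest value of 0.013 over the alternatives.

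Nle1, whose yeast counterpart helps release factors from large-subunit precursors, fell by 0.23 ± 0.04 in add-back and by 0.26 ± 0.04 in knockdown cells (edgeR adjusted p = 0.000264 and 8.32e-05). Ppan, a factor of early large-subunit precursors, fell by 0.18 ± 0.04 in add-back (edgeR adjusted p = 0.00251) and was at -0.10 ± 0.04 in knockdown (edgeR adjusted p = 0.0703), a value that passed without add-back replicate 1 (0.0369) and ranged from 0.00865 to 0.215. Noc2l, whose yeast counterpart takes part in moving large-subunit precursors through the nucleus, fell by 0.15 ± 0.03 and 0.10 ± 0.03 (edgeR adjusted p = 0.00129 and 0.0275). The knockdown call of Noc2l was lost without knockdown replicate 1 (0.102) or 3 (0.084), without scramble replicate 2 (0.0732) or 3 (0.113) and with no filter (0.0815), against a lowest value of 0.00177. Mrto4, which holds the place of the ribosomal stalk in precursors, fell by 0.11 ± 0.04 and 0.15 ± 0.04 (edgeR adjusted p = 0.0221 and 0.00274), less than its neighbours at -0.16 and -0.37. Its add-back call was lost without add-back replicate 1 (0.0905) or 2 (0.123), without scramble replicate 2 (0.0812) or 3 (0.0723) and with no filter (0.0667), against a lowest value of 0.00707. Nip7, an RNA-binding processing factor, averaged 75.1 ± 2.68, 79.3 ± 2.6 and 76.0 ± 0.612 CPM in add-back, knockdown and scramble cells (SD, n = 3 each) and passed in no comparison.

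Nop16 and Rrp1b, both of the large-subunit group, were highest in knockdown cells, as Myc was. Nop16 (chromosome 13, 54584185 to 54590090, minus strand), a nucleolar protein known as a Myc target, had 62.46, 63.90 and 65.34 CPM in add-back, 68.94, 73.04 and 71.15 CPM in knockdown and 64.58, 64.55 and 67.36 CPM in scramble cells. The knockdown libraries were above all others, and add-back overlapped scramble. Its log2 fold change was -0.15 ± 0.04 for add-back over knockdown (edgeR adjusted p = 0.0209), 0.12 ± 0.04 for knockdown over scramble (edgeR adjusted p = 0.019) and -0.04 ± 0.04 for add-back over scramble (edgeR adjusted p = 0.478). The add-back over knockdown call was lost without add-back replicate 1 (0.0861) or 2 (0.0555), without knockdown replicate 2 (0.111) or 3 (0.0566) and with library totals (0.0629), in a range from 0.00333 to 0.111. The knockdown over scramble call was lost without knockdown replicate 2 (0.0726), without scramble replicate 1 (0.0622) or 2 (0.0669), with library totals (0.163) and with no filter (0.0523), in a range from 0.00537 to 0.163. Its neighbours were lower than in scramble, with medians of -0.31 in add-back and -0.22 in knockdown cells.

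Rrp1b (chromosome 17, 32036100 to 32062865, plus strand), a nucleolar protein of large-subunit assembly that has also been linked to breast tumour metastasis, had 81.43, 83.63 and 84.55 CPM in add-back, 90.18, 92.81 and 87.72 CPM in knockdown and 66.67, 66.06 and 67.07 CPM in scramble cells. As for Myc, the 3 groups did not overlap and add-back lay between the other two. It rose by 0.32 ± 0.04 in add-back and by 0.44 ± 0.04 in knockdown cells over scramble (edgeR adjusted p = 1.68e-06 and 3.68e-08), where its neighbours had medians of 0.16 and 0.21. Add-back over knockdown was -0.12 ± 0.04 (edgeR adjusted p = 0.056; 0.0193 to 0.24 over the alternatives), and DESeq2 called it (adjusted p = 0.0248). Wdr74, a partner of an ATPase that remodels large-subunit precursors, had 59.48, 55.84 and 58.36 CPM in add-back, 61.81, 63.71 and 63.30 CPM in knockdown and 68.20, 65.74 and 67.89 CPM in scramble cells. Its groups did not overlap, but with scramble the highest and add-back the lowest. It fell by 0.22 ± 0.04 in add-back over scramble (edgeR adjusted p = 0.000205) and, narrowly, by 0.10 ± 0.04 in knockdown over scramble (edgeR adjusted p = 0.0488). The knockdown call of Wdr74 was lost without any single library of the 9 (0.058 to 0.153, the highest without knockdown replicate 1), with no filter (0.163) and with only the 2 groups (0.0649), against a lowest value of 0.00671. For add-back over knockdown, DESeq2 also called Wdr74 (adjusted p = 0.0337) and Pes1 (adjusted p = 0.0382), where edgeR gave -0.12 ± 0.04 (adjusted p = 0.0685, 0.0247 to 0.229 over the alternatives) and -0.11 ± 0.04 (adjusted p = 0.0827, 0.0189 to 0.295 over the alternatives). With the replicate number as a block, edgeR called Rrp1b, Wdr74 and Pes1 lower in that comparison (adjusted p = 0.0193, 0.0247 and 0.0189).

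**Figure D3:**
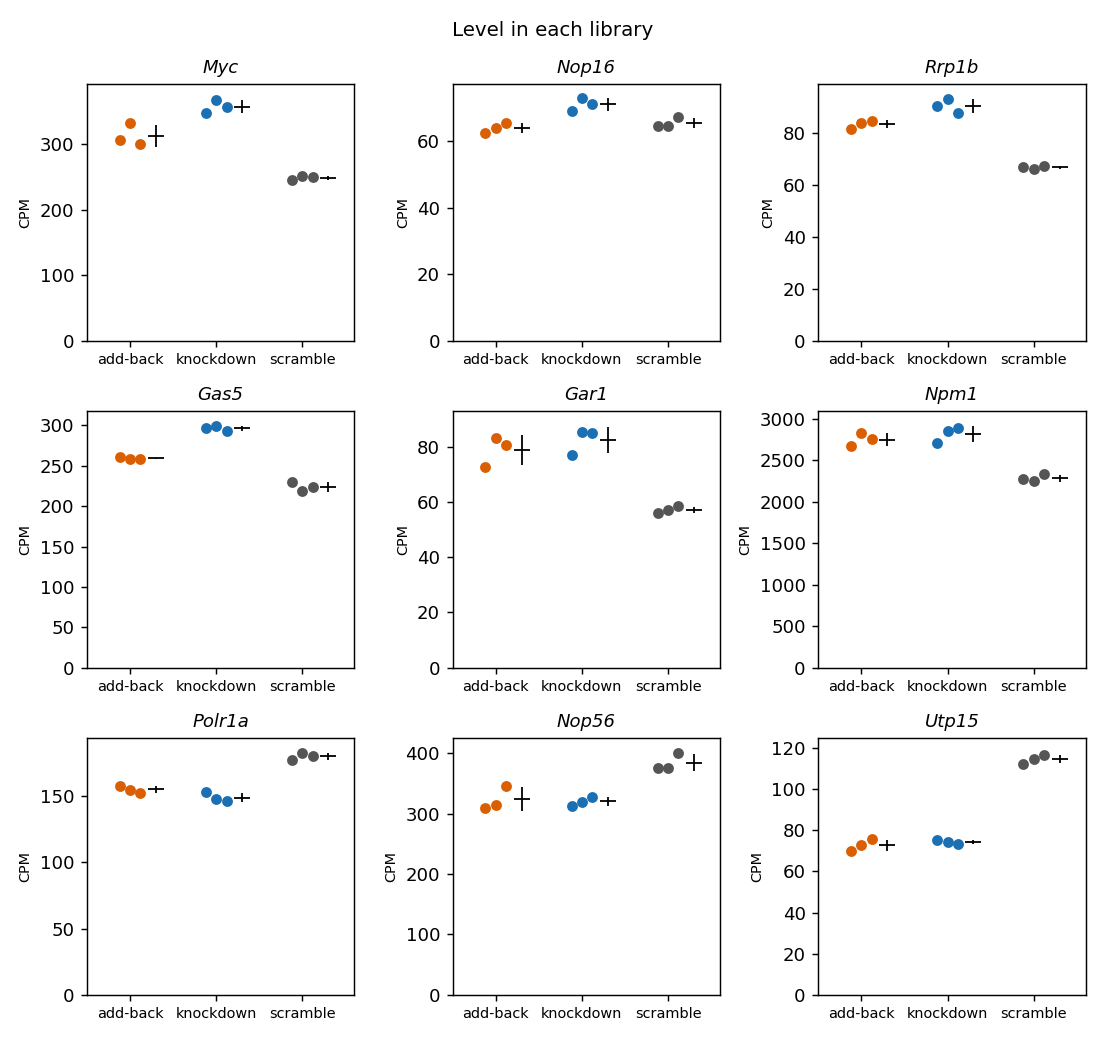
CPM of Myc, 7 of the 44 genes and the snoRNA host gene Gas5 in each library (points, from add-back left to scramble right), with the mean and 1 SD beside each group (black, n = 3) and axes from 0. Myc, Nop16, Rrp1b and Gas5 are higher in every knockdown library than in all others. Gar1 and Npm1 are above scramble in both hairpin groups, which overlap, and Polr1a, Nop56 and Utp15 are below scramble.

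Summed over the list, opposite changes offset each other, in a total weighted towards Npm1 and Ncl, the most abundant of the 44 genes. The 44 genes together had 10590, 11220 and 11360 CPM in add-back, 10850, 11510 and 11580 CPM in knockdown and 10950, 11070 and 11680 CPM in scramble libraries, and the 3 groups overlapped. Replicate 1 was the lowest of each group. The 4 box C/D genes together had 1303, 1389 and 1459 CPM in add-back, 1324, 1433 and 1440 CPM in knockdown and 1502, 1533 and 1635 CPM in scramble cells, so that scramble lay above both. The 12 large-subunit genes had 1318, 1344 and 1368 CPM in add-back, 1381, 1429 and 1391 CPM in knockdown and 1470, 1465 and 1497 CPM in scramble cells, with no overlap between groups and add-back the lowest. Scramble also lay above both hairpin groups for the 4 polymerase I genes, at 717.1 to 760.6 CPM against 626.1 to 667.6 CPM. The same held for the 15 small-subunit genes, at 1637 to 1729 CPM against 1522 to 1633 CPM. The 4 box H/ACA genes overlapped, at 363.0 to 404.7 CPM over all libraries. In contrast, the 5 nucleolar proteins and helicases, dominated by Npm1 and Ncl, had 5443, 5870 and 5841 CPM in add-back, 5580, 5973 and 6070 CPM in knockdown and 5263, 5276 and 5660 CPM in scramble cells, where the groups overlapped. These sums are descriptions and were not tested.

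Several of the 44 genes lie among neighbours that shifted in the same direction. In knockdown over scramble, 7 of the 44 genes lay in stretches of 41 tested genes whose median log2 fold change, with the gene itself left out, was beyond 0.3 in either direction, and 5 did in add-back over scramble. Of the 31 genes called in knockdown over scramble, 26 kept their sign once the median of their neighbours was taken away, and Fbl, Utp20, Wdr43, Bysl and Mrto4 did not. In add-back over scramble, 30 of 36 kept it, and Rrp9 was the additional gene that did not. The matching shares over all tested genes were not worked out, so these counts describe the 44 genes only. The median of the 44 genes was -0.05 in knockdown and -0.09 in add-back relative to neighbours, against -0.10 and -0.13 before. Reads that overlapping or near-identical genes share may not be told apart, since the strand setting of the counting is not given in the sources used here. The exons of Bysl overlap those of Ccnd3 on the opposite strand by 361 bases and those of Noc2l overlap Samd11 by 598 bases. The pseudogene row Fbl-ps2 held 2.71% as many counts as Fbl, and Nop56, Nop58, Ncl, Gnl3 and Ppan carry annotated snoRNAs within their exons.

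Outside the list, 122 further genes of ribosome biogenesis were tested, covering other polymerase I and snoRNP assembly genes and other factors of both subunits. Of these, 9 fell (7.38%, against 4.82% of all tested genes) and 113 did not pass in add-back over knockdown, with a median of -0.03. In add-back over scramble 19 rose and 48 fell (39.3%), and in knockdown over scramble 29 rose and 45 fell (36.9%), with medians of -0.08 and -0.05. Pwp2, a processome protein, had the largest fall, with log2 fold changes of -0.89 ± 0.04 in both comparisons with scramble (edgeR adjusted p = 3.91e-11 in add-back and 3.55e-11 in knockdown cells), on a stretch of chromosome 10 whose medians were -0.56 and -0.65. Rrp1, the paralogue of Rrp1b, fell by 0.88 ± 0.05 in add-back and by 0.84 ± 0.05 in knockdown cells (edgeR adjusted p = 1.46e-10 and 2.49e-10), also on chromosome 10, with neighbour medians of -0.61 and -0.68. The largest rise was that of Utp3, another processome protein, by 0.59 ± 0.06 and 0.75 ± 0.06 (edgeR adjusted p = 2.18e-07 and 1.23e-08). The RNA exosome, which trims the precursors, was split, with 4 of its 13 tested genes higher (30.8%) and 7 lower (53.8%) in add-back over scramble. In knockdown over scramble, 4 were higher (30.8%) and 6 lower (46.2%).

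Host genes of snoRNAs, whose introns hold the guide RNAs of the C/D and H/ACA particles, rose in most cases. Of 16, 13 rose and 1 fell in knockdown over scramble (81.2% higher), with a median of 0.37, and 10 rose and 1 fell in add-back over scramble, with a median of 0.21. In add-back over knockdown, 4 host genes fell (25.0%) and 12 did not pass, where 4.82% of all tested genes fell. Gas5, a growth arrest transcript that hosts box C/D snoRNAs, had 260.3, 258.2 and 258.7 CPM in add-back, 296.4, 298.8 and 293.6 CPM in knockdown and 230.0, 218.4 and 223.1 CPM in scramble cells. The groups were far apart relative to their spread, in the order seen for Myc, with log2 fold changes of -0.19 ± 0.03 for add-back over knockdown (edgeR adjusted p = 0.00106), 0.21 ± 0.03 for add-back over scramble (edgeR adjusted p = 5.14e-05) and 0.40 ± 0.03 for knockdown over scramble (edgeR adjusted p = 2.78e-08). Snhg5 had 69.06, 71.31 and 73.90 CPM in add-back, 88.03, 90.38 and 87.29 CPM in knockdown and 65.29, 62.71 and 63.36 CPM in scramble cells, again with knockdown highest and no overlap. Its values were -0.31 ± 0.04, 0.16 ± 0.04 and 0.47 ± 0.04 for the same 3 comparisons (edgeR adjusted p = 5.08e-05, 0.00207 and 2.61e-08). The others that fell in add-back over knockdown were Snhg12 (-0.27 ± 0.04, edgeR adjusted p = 0.00027) and Snhg1 (-0.25 ± 0.05, edgeR adjusted p = 0.00455). Both of these and Gas5 were named after their values were seen. The largest rise among the host genes was that of Snhg9, which was not highest in knockdown: it rose by 1.87 ± 0.31 in add-back and by 1.37 ± 0.32 in knockdown cells over scramble (edgeR adjusted p = 8.61e-05 and 0.00166), with 0.5674, 0.5654 and 0.6571 CPM in add-back, 0.3997, 0.4715 and 0.3855 CPM in knockdown and 0.2011, 0.128 and 0.1594 CPM in scramble cells. The host gene that fell in knockdown over scramble was Snhg17, at -0.17 ± 0.05 (edgeR adjusted p = 0.00879), a call lost without knockdown replicate 3 (0.0581) and at its lowest 0.00169 over the alternatives.

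Myc targets that act outside the ribosome changed in both directions. Of 26, 2 rose and 3 fell in add-back over knockdown, 4 rose and 11 fell in add-back over scramble, and 6 rose and 10 fell in knockdown over scramble. Where 10.4%, 55.8% and 57.5% of all tested genes were called in either direction, 19.2%, 57.7% and 61.5% of the 26 were. Odc1, ornithine decarboxylase of polyamine synthesis, had 1031, 956.8 and 958.4 CPM in add-back, 703.4, 692.0 and 704.4 CPM in knockdown and 1526, 1544 and 1453 CPM in scramble cells, the reverse of the Myc order. It rose by 0.49 ± 0.04 in add-back over knockdown and fell by 1.11 ± 0.04 in knockdown over scramble (edgeR adjusted p = 2.83e-07 and 7.26e-13). Tfrc, the transferrin receptor, had the largest fall, by 1.34 ± 0.04 in knockdown over scramble (edgeR adjusted p = 3.26e-13), and Cad, of pyrimidine synthesis, the largest rise, by 0.48 ± 0.06 (edgeR adjusted p = 1.06e-05). Of 17 proliferation markers, 3 rose (17.6%) and 8 fell (47.1%) in add-back over scramble, with a median of -0.10. In knockdown over scramble 3 rose (17.6%) and 10 fell (58.8%), with a median of -0.13. Of all tested genes, 27% rose and 28.7% fell in add-back over scramble, and 27.7% rose and 29.9% fell in knockdown over scramble. Mcm5, a replication helicase subunit, fell by 0.38 ± 0.04 and Bub1, a mitotic checkpoint kinase, rose by 0.47 ± 0.05 in knockdown over scramble (edgeR adjusted p = 1.13e-07 and 9.96e-07). These markers moved beside the ribosome biogenesis genes, and their part in the result was not tested.

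**Figure D4:**
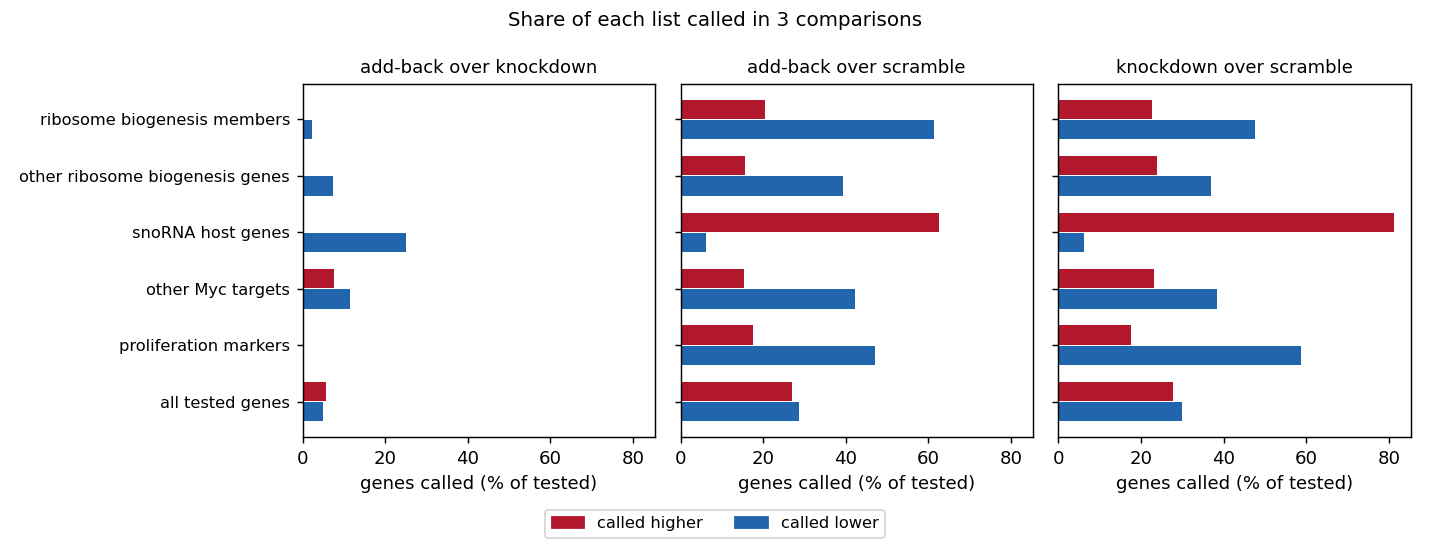
Share of each gene list called higher (red) and lower (blue) by edgeR, in percent of its tested genes, for add-back over knockdown, add-back over scramble and knockdown over scramble, with bars from 0. The 44 genes have longer blue than red bars in both comparisons with scramble (61.4% against 20.5% for add-back and 47.7% against 22.7% for knockdown), while snoRNA host genes have the longest red bar, at 81.2% for knockdown over scramble.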

How the data were processed

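The deposited table holds raw counts by gene symbol, which the authors did not normalize. RNA was extracted by column and made into mRNA-seq libraries, per the labels' protocols. FastQC, MultiQC, STAR and the mm10 build were used, per the submitters' processing notes; for the read counter, its annotation, strand setting and all versions, nothing was given in the sources used here. Columns were matched to samples on arm and replicate number, since the columns say KD3 where the titles say KD2. Of 7 gene symbols whose rows can hold ribosomal RNA reads, 0 were found in the table, so none was analysed here.

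Of 52208 genes, 29899 had a count and 16766 passed the filterByExpr filter of edgeR, set by group with a minimum count of 10 and a minimum total of 15. TMM scaling and the tests came from edgeR 4.0.16 under R 4.3.3 (quasi-likelihood, robust, group as the only term, all 9 libraries, 6 residual degrees of freedom). Benjamini-Hochberg adjustment ran over all tested genes, with calls at 0.05. The common biological coefficient of variation was 5.26%. Replicate libraries differed by more than sampling noise (3.85 to 20.75 chi-square units per degree of freedom). Each was counted as a sample, as the labels call them biological replicates. Such differences cannot show whether the libraries are independent. DESeq2 1.42.0 and limma voom 3.58.1 were run as alternatives, beside other scalings and filters, a fit of only the 2 groups compared, the replicate number as a block and leaving out each library. The procedure was tested on simulated counts with known changes.

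Positions are 1-based on GRCm38/mm10 from GENCODE, and 96.9% of tested genes had one. A neighbourhood is the 41 tested genes centred on a gene, and its median leaves that gene out.

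The members and lists were chosen with earlier results of these data known. Values in every library were set to be given for the member with the smallest p of each role and comparison, the largest changes, Ncl, Npm1, Fbl, Polr1a, Polr1b, Ubtf, Rrn3 and Nop16; other genes shown in that way were added after their values were seen.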

Additional observations from a re-analysis of the deposited data

How the results depend on the processing

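Of the genes called in add-back over scramble, 27 of 36 passed in all 17 alternatives, as did 26 of 31 in knockdown over scramble, and Nop16 did not in add-back over knockdown. The number of the 44 genes called lower in add-back over knockdown was 1, and was 0 with library totals, 2 with no filter, 4 with DESeq2, 6 under a replicate block and 0 to 3 when single libraries were left out, with 0 without add-back replicate 1 or 2 or knockdown replicate 2 or 3, and 3 without knockdown replicate 1. Over all tested genes, 808 were lower there, against 1374 with the block and 492 to 825 when single libraries were left out, with 492 without knockdown replicate 2 and 505 without add-back replicate 3. The median of the 44 in knockdown over scramble was -0.095, and was -0.143 with library totals and -0.054 relative to neighbouring genes; library totals moved the median of all tested genes by -0.048 in that comparison. The cause of these shifts was not tested.

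Some genes near 0, which passed in no setting of the comparisons named next, changed sign. With library totals, Ddx18 was at -0.01 in add-back over scramble, and Ncl at -0.02 and Pes1 at -0.03 in knockdown over scramble. Leaving out single libraries gave ranges in add-back over scramble of -0.06 to 0.02 for Nolc1, -0.05 to 0.04 for Ncl, -0.02 to 0.03 for Ddx18, -0.16 to 0.01 for Mxd1, -0.10 to 0.01 for Vim and -0.04 to 0.02 for Nip7, and in knockdown over scramble of -0.05 to 0.04 for Nolc1 and -0.00 to 0.08 for Ncl.

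The labels number replicates 1 to 3 in each group. Deviations of same-numbered libraries from their group means correlated at -0.011 to 0.123, and 5 of 9 libraries correlated best with their own number. These values cannot decide whether libraries of equal number share an effect, since no expected value was worked out for them. The main fit did not pair the samples. The block is given here as a setting only, and whether a shared replicate effect lies behind its larger counts was not tested.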
